A study of Mus musculus with 8 samples.

Results

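The heat shock genes described here are 10 genes of cytosolic and mitochondrial chaperones, taken by symbol out of the 54532 genes of a count table from sorted spinal cord microglia. They were found by Ensembl identifier through the GENCODE annotation of the mm10 build, and all 10 were in the table and passed the filter on low counts. They were split by what is known of their control into 6 stress-inducible genes (Hspa1a, Hspa1b, Dnajb1, Hsph1, Hsp90aa1 and Hspb1) and 4 that are made constitutively (Hspa8, Hsp90ab1, Hspd1 and Hspe1). The libraries came from 8 female mice, 4 wild type (WT) and 4 of the Cd11b-P2X4mCherryIN knock-in (KI), with 1 library per mouse. P2X4 is a channel opened by extracellular ATP, and CD11b is a surface protein of myeloid cells. The labels name no treatment, disease, age or batch for these mice, and they do not say how the allele was built. In each group the cells were living microglia sorted by flow cytometry as CD11b positive, low for CD45 and negative for Ly6C.

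Heat shock proteins are chaperones that hold, fold or release other proteins. Under heat, oxidants or other protein-damaging stress, the transcription factor HSF1 binds heat shock elements and drives the inducible genes. These elements are repeats of the letters GAA and its inverse TTC. The constitutive members serve folding in unstressed cells, but a place among them does not mean that a gene lacks such elements. In microglia and other brain cells, enzymatic or prolonged dissociation is also known to induce some heat shock genes together with immediate early genes. Levels in sorted cells can therefore hold both sources. The labels describe mechanical dissociation and a Percoll gradient before the sort.

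Total reads on genes ranged from 45167483 to 54049801 per library. Summed CPM (reads scaled to a common library total by TMM) of 10 microglial markers was 33830 to 38660 in WT and 32450 to 36650 in KI, and none of the markers was at 0 in any library. KI 528 held the highest sums of the monocyte (18.3 CPM), border macrophage (17.0), neutrophil (52.0) and lymphocyte (3.35) marker lists, each of 6 genes. In WT these sums were 6.12 to 10.2, 5.2 to 6.77, 0.198 to 18.4 and 0.357 to 2.51 CPM, and all 6 neutrophil and all 6 lymphocyte markers were at 0 in some library. Astrocyte, oligodendrocyte and erythroid sums were larger, at 322 to 395, 164 to 283.5 and 160 to 524 CPM in WT. In KI they were 316 to 380.5, 148 to 273 and 96.6 to 307 CPM. The highest astrocyte and erythroid sums were in WT 504 and the highest oligodendrocyte sum in WT 527. Endothelial sums were 36.25 to 55.9 CPM in WT and 47.75 to 50.9 in KI, and neuronal sums 3.83 to 9.77 and 1.13 to 15.7. In bulk libraries like these, fewer cells of a type and less RNA per cell cannot be told apart.

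RefSeq promoter windows (build GRCm38.p6) were at hand for 7 of the 10 genes. The near-identical pair Hspa1a and Hspa1b and the neighbours Hspd1 and Hspe1 are shown first, because their counts bear on each other in the results that follow. Hspa1a and Hspa1b both encode the inducible Hsp70 and lie on the minus strand of chromosome 17, Hspa1a (ENSMUSG00000091971) at 34969190 to 34972156 and Hspa1b (ENSMUSG00000090877) at 34956436 to 34959238. The 250 bases before each start are given 5′ to 3′, at chr17:34972157-34972406 for Hspa1a and chr17:34959239-34959488 for Hspa1b, with a GAANNTTC element in capitals.
Hspa1a: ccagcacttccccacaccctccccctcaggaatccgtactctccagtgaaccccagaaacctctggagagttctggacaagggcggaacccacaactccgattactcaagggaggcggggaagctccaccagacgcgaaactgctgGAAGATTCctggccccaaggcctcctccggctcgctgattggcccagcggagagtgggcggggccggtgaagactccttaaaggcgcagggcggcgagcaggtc
Hspa1b: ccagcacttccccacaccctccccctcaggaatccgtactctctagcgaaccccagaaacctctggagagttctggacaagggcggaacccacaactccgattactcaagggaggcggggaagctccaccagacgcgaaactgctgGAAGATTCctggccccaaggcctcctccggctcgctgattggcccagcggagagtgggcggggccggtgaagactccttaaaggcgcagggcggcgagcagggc
The windows differ at 3 of 250 bases, C44T, T47C and T249G, with the Hspa1a base first and positions counted from 1 at the 5′ end of the window. The transcripts themselves were 99.2% identical over 2201 aligned bases.

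Hspe1, the Hsp10 co-chaperonin, and Hspd1, the Hsp60 chaperonin that it caps inside mitochondria, are read in opposite directions from 1 stretch of chromosome 1. In the annotation Hspd1 (ENSMUSG00000025980, minus strand) covers 55077835 to 55088243 and Hspe1 (ENSMUSG00000073676, plus strand) 55088132 to 55091307, and their exons overlap. The shared stretch at chr1:55088053-55088082, given on the plus strand and within a first exon of an Hspd1 transcript, holds overlapping TTCNNGAA and GAANNTTC elements. Hsph1 and Hspb1 are shown for comparison, at chr5:149636352-149636379 on the minus strand and chr5:135887782-135887849 on the plus strand, with matches to either element in capitals; the Hsph1 stretch begins before the annotated start of the gene and runs into a first exon.
Hspe1: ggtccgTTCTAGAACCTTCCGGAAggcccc
Hsph1: ggtagaatctTTCTCGAAggctcgagaa
Hspb1: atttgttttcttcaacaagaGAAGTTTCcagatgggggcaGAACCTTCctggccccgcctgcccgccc
The longer form with 3 units, GAANNTTCNNGAA or its reverse complement TTCNNGAANNTTC, occurred before a start of Hspd1 and of Hspe1, among 0.514% of the 27025 genes with a window. Both were placed among the constitutive genes here, and none of the inducible genes with a window held an exact match to that form. Only exact matches were searched for, so longer elements with a mismatched letter were not counted in any gene. The form with 2 units, GAANNTTC or TTCNNGAA, each of which is its own reverse complement, occurred in 6 of the 7 members with a window and in 14.5% of all genes. It also lies inside each match of the longer form. The exception among the 7 was Dnajb1, whose 250 bases before either annotated start held neither form. The longer matches of Hspd1 and Hspe1 are the same letters of the shared stretch, read on opposite strands. Hspa1a and Hspa1b hold the same match in near-identical windows, so these counts are not of separate promoters. The matches describe letters only, and binding was not tested.

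Compared per length, as CPM per kilobase of exon, the constitutive cytosolic chaperones stood highest. Hsp90ab1, the constitutive Hsp90, averaged 325 ± 40.2 for WT and 357 ± 64.1 for KI (n = 4 each, SD), and Hspa8, the constitutive Hsp70, 201 ± 24.5 and 217 ± 38.2. The next was Dnajb1, the Hsp40 that brings clients to Hsp70 and starts its ATP cycle, at 75.7 ± 12.4 and 90.5 ± 28.3, ahead of Hspd1 at 55.0 ± 8.36 and 53.9 ± 6.49. This order of 4 genes, and the place of Hspd1 above Hsp90aa1, held in each of the 8 libraries. It depends on the length, which is that of all exons annotated for a gene. By CPM alone, KI 513 had Hspa8 above Hsp90ab1 (951 against 915) and Hsp90aa1 above Hspd1 (197 against 155). Hsp90aa1, the inducible Hsp90, Hspe1 and Hspa1a were close together, with means over the 8 libraries of 31.3, 26.5 and 25.8 CPM per kilobase. Reads counted at near-identical copies, which were many for Hsp90aa1 and are described below, are not in these levels. Hsp90aa1 lay above Hspe1 in 7 of 8 libraries and Hspe1 above Hspa1a in 6 of 8, so the order of these 3 varied between mice. Hsph1, an Hsp110 that recharges Hsp70 with ATP, averaged 6.84 and lay below Hspa1a and above Hspb1 in each library. Hspb1, a small chaperone that binds unfolded proteins without ATP, averaged 2.19 and Hspa1b 1.62, and each was the higher of the pair in 4 of 8 libraries.

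**Figure D1:**
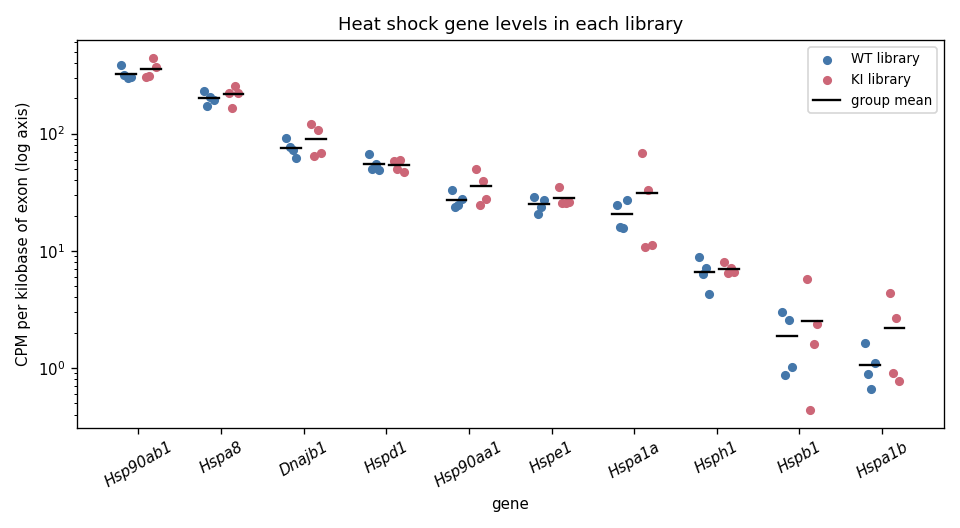
CPM per kilobase of exon (log axis) for the 10 heat shock genes, ordered by their mean over all libraries, with 1 point per library (WT blue, KI red) and a bar at each group mean. Hsp90ab1 and Hspa8 stand highest in both groups, and the KI libraries of Hspa1a spread from 10.7 to 68.4 while the WT libraries lie between 15.5 and 26.9.

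How KI microglia differ from WT microglia is the single comparison of the design. None of the 10 heat shock genes passed the edgeR quasi-likelihood test with Benjamini-Hochberg adjustment over the 17291 genes tested, where 0% of all genes passed. None passed at an unadjusted p under 0.05 either, which 7.79% of all genes did, and the groups overlapped in all 10, whereas they did not overlap in 4.94% of all genes (2.34% higher and 2.6% lower in KI). DESeq2, limma-voom and limma on the deposited FPKM also called 0 members, with 1.19%, 0% and 0.00588% of all genes called. The log2 fold changes (KI over WT) ran from 0.09 to 1.02 for the 6 inducible genes, with a median of 0.41, and from −0.03 to 0.16 for the 4 constitutive genes, with a median of 0.12. Values above 0 were found for 6 of the 6 and 3 of the 4, and for 50.1% of all tested genes. Without KI 513, 4 of the 6 inducible values were above 0 and their median was 0.05; leaving out any other single library gave 5 or 6 of 6 and medians of 0.29 (without WT 504) to 0.65 (without KI 526). The median of the constitutive genes ran from 0.02 (without KI 528) to 0.20 (without WT 503) in such fits.

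Hspa1a varied most between mice among the abundant members. It was read at 73.6, 47.0, 46.0 and 79.8 CPM in WT 503, WT 504, WT 506 and WT 527, and at 203, 31.8, 98.9 and 33.1 CPM in KI 513, KI 526, KI 528 and KI 549. The KI libraries lay on both sides of the WT range, 2 of them above every WT library and the other 2 below. The log2 fold change was 0.57 (SE 0.53, 95% interval −0.61 to 1.75, adjusted p = 0.868), and without KI 513 it was −0.18. By limma-voom the estimate was 0.12. Expressed as a fold, that interval runs from 0.657 to 3.36.

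Hspa1b showed the same 2 high libraries at a far lower level. Its CPM was 4.56, 2.47, 1.85 and 3.11 in WT 503, WT 504, WT 506 and WT 527 and 12.3, 2.56, 7.41 and 2.15 in KI 513, KI 526, KI 528 and KI 549. KI 513 and KI 528 lay above every WT library, and the other KI libraries lay within the WT range. The log2 fold change of 1.02 (SE 0.55, 95% interval −0.19 to 2.24, adjusted p = 0.716) was 0.42 without KI 513 and 0.65 by limma-voom. A read that fits both genes can be counted at either, so the pair was also summed, which gave a log2 fold change of 0.60 (SE 0.53, adjusted p = 0.86). Reads of Hspa1a per read of Hspa1b, a ratio that no scaling of libraries changes, were 21.4 ± 4.57 for WT and 14.4 ± 1.87 for KI (n = 4 each, SD). WT 503 at 16.2 lay below KI 513 at 16.5, so the groups overlapped.

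Dnajb1 and Hsp90aa1 had their highest values in the same mice. Dnajb1 (ENSMUSG00000005483, chromosome 8, 83608193 to 83612653, plus strand) was at 295, 245, 231 and 199.8 CPM in WT 503, WT 504, WT 506 and WT 527. In KI 513, KI 526, KI 528 and KI 549 it was at 391, 208, 342 and 219 CPM. KI 513 and KI 528 exceeded every WT library, and KI 526 and KI 549 lay inside the WT range (log2 fold change 0.26, SE 0.20, adjusted p = 0.83; 0.08 without KI 513).

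Hsp90aa1 (ENSMUSG00000021270, chromosome 12, 110690605 to 110702728, minus strand) was at 130, 93.1, 97.1 and 108 CPM in WT 503, WT 504, WT 506 and WT 527. In KI 513, KI 526, KI 528 and KI 549 the level was 197, 97.1, 154 and 109 CPM, again with the first and the third of these above every WT library. The difference was 0.38 on the log2 scale (SE 0.21, 95% interval −0.08 to 0.84, adjusted p = 0.723), the estimate without KI 513 was 0.16, and that without KI 526 was 0.51. As a share of both Hsp90 genes per length, Hsp90aa1 made up 7.02% to 8.28% in the WT libraries and 6.98% to 8.11% in 3 KI libraries, against 14.1% in KI 513. The corresponding share of Hspa1a and Hspa1b in the total of Hspa1a, Hspa1b and Hspa8 ranged from 7.25% to 12.5% in WT. It was 24.8% in KI 513 and 5.05% to 12.3% in the other KI libraries.

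Hsph1 (ENSMUSG00000029657, chromosome 5, 149614287 to 149636376, minus strand) did not rise above every WT library in KI 513 or KI 528. It was highest in WT 503 at 64.2 CPM and lowest in WT 527 at 30.9 CPM, the WT library with the most Hspa1a. WT 504 and WT 506 held 45.9 and 51.5 CPM. KI 513, KI 526, KI 528 and KI 549 held 58.3, 46.8, 51.6 and 48.1 CPM, all inside the WT range. Within KI, the order of the libraries was that of Hspa1a, Dnajb1 and Hsp90aa1. The log2 fold change was 0.09 (SE 0.19, adjusted p = 0.959), and it was −0.07 without WT 527.

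Hspb1 (ENSMUSG00000004951, chromosome 5, 135887919 to 135889563, plus strand) was scarce, with 24 reads in KI 526 and 263 in KI 513. It was at 3.08, 0.902, 2.64 and 1.05 CPM in WT 503, WT 504, WT 506 and WT 527 and at 5.88, 0.452, 1.64 and 2.43 CPM in KI 513, KI 526, KI 528 and KI 549. The highest and the lowest library were both KI. The log2 fold change of 0.44 (SE 0.70, adjusted p = 0.941) was −0.35 without KI 513 and 0.04 by limma-voom, and the 95% interval ran from −1.12 to 1.99.

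Among the constitutive genes, Hspa8 (ENSMUSG00000015656, chromosome 9, 40800984 to 40810087, plus strand) was at 991, 738, 889 and 839.8 CPM in WT 503, WT 504, WT 506 and WT 527. The KI libraries 513, 526, 528 and 549 held 951, 708, 1103 and 964 CPM, the highest value being that of KI 528 and the lowest that of KI 526. The difference was 0.11 on the log2 scale (SE 0.13, 95% interval −0.18 to 0.40, adjusted p = 0.908). Hsp90ab1 (ENSMUSG00000023944, chromosome 17, 45567775 to 45573271, minus strand) was at 1152, 941, 892 and 911 CPM in WT 503, WT 504, WT 506 and WT 527. It was at 915, 934, 1330 and 1104 CPM in KI 513, KI 526, KI 528 and KI 549, so KI 513, the library with the most inducible transcripts, was the lowest of the KI group. The log2 fold change was 0.14 (SE 0.13, 95% interval −0.14 to 0.41, adjusted p = 0.868). Both genes peaked in KI 528, the library with the highest sums of monocyte, border macrophage, neutrophil and lymphocyte markers. Without it their log2 fold changes were 0.02 each. KI 528 was also 1 of the 2 high KI libraries for Hspa1a, Hspa1b, Dnajb1 and Hsp90aa1, whose log2 fold changes without it were 0.53, 0.92, 0.17 and 0.33. The sort for low CD45 and against Ly6C is meant to leave such cells out, and their part in the levels was not tested.

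The mitochondrial pair was close in the groups. Hspd1 was at 177, 132, 144 and 128 CPM in WT 503, WT 504, WT 506 and WT 527 and at 155, 133, 159 and 123 CPM in KI 513, KI 526, KI 528 and KI 549. WT 503 was the highest library and KI 549 the lowest (log2 fold change −0.03, SE 0.12, 95% interval −0.29 to 0.24, adjusted p = 0.978). Hspe1 was at 42.4, 30.5, 35.0 and 40.1 CPM in WT 503, WT 504, WT 506 and WT 527 and at 51.3, 37.9, 37.4 and 38.3 CPM in KI 513, KI 526, KI 528 and KI 549. KI 513 stood above all other libraries, and the other KI libraries lay inside the WT range (log2 fold change 0.16, SE 0.14, adjusted p = 0.868; 0.03 without KI 513). Per length, Hspd1 exceeded Hspe1 by 2.21 ± 0.288 times for WT and 1.95 ± 0.301 times for KI (n = 4 each, SD), and the groups overlapped.

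**Figure D2:**
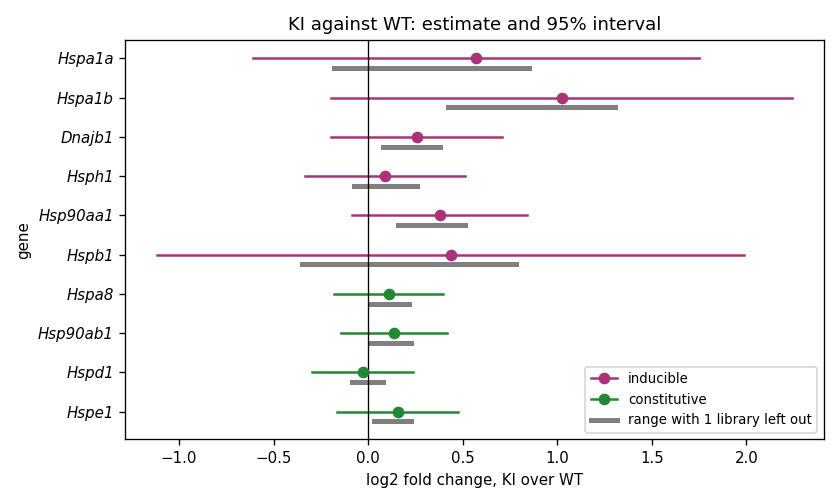
Log2 fold change of KI over WT with its 95% interval for each inducible (purple) and constitutive (green) gene, and below each a grey bar for the range of the estimate when 1 library at a time was left out. Each interval spans 0, and those of Hspa1a, Hspa1b and Hspb1 are the widest.

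Some counts depend on near-identical copies elsewhere in the genome. Of the reads counted at Hsp90aa1 and at 3 annotated pseudogenes with at least 95% identity over at least 200 bases, 32.5% were counted at the pseudogenes, most of them at Gm12346. For Hspd1 the share was 24.3%, all at Hspd1-ps3, with 23.4% to 25.4% in the single libraries. The Hsp90aa1 share was 28.3% to 34.9% by library. For Hspa8 it was 5.69% over 5 pseudogenes (5.34% to 5.92%) and for Hspb1 8.28% at Hsp25-ps1, with a wide range of 2.96% to 17.2% on few reads. Whether those reads came from the pseudogenes or from the parent genes was not tested. The levels per length and the Hsp90 and Hsp70 shares above were taken without these copies. Hsp90aa1 averaged 107 ± 16.6 CPM for WT and 139 ± 45.6 for KI without them. With the copies added, including the noncoding Gm26825 for Hspa8 and the gene model Gm9817 for Hspb1, Hsp90aa1 averaged 160 ± 24.4 CPM for WT and 203 ± 57.7 for KI (log2 fold change 0.34, SE 0.19, adjusted p = 0.716). Hspd1 then averaged 192 ± 28.2 and 188 ± 21.3 CPM (log2 fold change −0.03, SE 0.11, adjusted p = 0.973). Hspb1 gave a log2 fold change of 0.56 in place of 0.44 (SE 0.67, adjusted p = 0.907), and Hspa8 0.11 as before (SE 0.13, adjusted p = 0.907).

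Before abundance was taken into account, the inducible genes also had a larger spread between mice of a group than the constitutive ones. The SD of log2 CPM within groups was 0.96 for Hspa1a, 0.93 for Hspa1b and 1.22 for Hspb1. It was 0.36 each for Dnajb1 and Hsp90aa1 and 0.33 for Hsph1. For the constitutive genes it was 0.23 (Hspa8), 0.21 (Hsp90ab1), 0.19 (Hspd1) and 0.22 (Hspe1), near the median of 0.21 over the 10171 genes whose mean reached 5 CPM. Since spread depends on abundance, edgeR's biological coefficient of variation was set against its trend at the same level. For Hspa1a it was 0.51 against 0.13, 3.80 times the trend, and for Dnajb1 and Hsp90aa1 1.82 and 1.70 times. It lay between 0.957 and 1.39 times the trend in the other 7 genes. Among these, the inducible Hspa1b (1.39), Hspb1 (1.295) and Hsph1 (1.294) lay near the constitutive Hspa8 (1.28) and Hsp90ab1 (1.25). No test of these differences in spread was made.

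**Figure D3:**
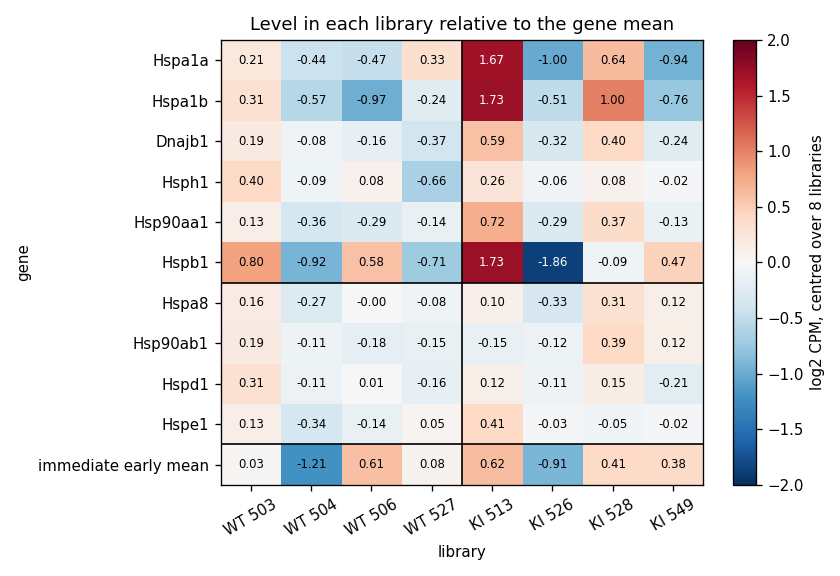
Log2 CPM of each gene in each library, centred on the gene's mean over the 8 libraries, with the mean of 17 immediate early genes in the last line; lines separate inducible from constitutive genes and WT from KI. KI 513 is the highest library for Hspa1a, Hspa1b, Dnajb1, Hsp90aa1, Hspb1 and Hspe1, while WT 504 and KI 526 are below 0 for all 10 genes, WT 527 for 8, and WT 506 and KI 549 for 7 each.

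Over the 8 libraries all 45 pairs of members had a Pearson r of log2 CPM above 0. After Benjamini-Hochberg adjustment over the 45 pairs, 5 passed a 2-sided exact permutation test, and all 5 joined Hspa1a, Hspa1b, Dnajb1 or Hsp90aa1. For Hspa1b and Hsp90aa1, r was 0.97 (exact permutation p = 0.00102, adjusted 0.0329), and Spearman's rho was 0.81 (exact permutation p = 0.0218, adjusted 0.229). For Hspa1a and Hspa1b, whose reads can be exchanged, r was 0.92 (exact permutation p = 0.00146, adjusted 0.0329) and rho 0.81 (exact permutation p = 0.0218, adjusted 0.229). The other 3 were Dnajb1 with Hsp90aa1 (r = 0.91), Hspa1b with Dnajb1 (r = 0.91) and Hspa1a with Hsp90aa1 (r = 0.89), each with an adjusted exact permutation p of 0.0373. By rank, 0 of the 45 pairs passed, the smallest adjusted exact permutation p being 0.229. Without the 2 libraries farthest from the median of the first gene, r of these 5 pairs was 0.54 to 0.86 and none passed. The farthest were KI 513 with KI 526 or KI 528, so the size of the relations rests in part on those libraries. With 6 libraries there are 720 pairings, too few for a single pair to pass on its own after adjustment over the 45 pairs. That none passed therefore does not show whether the relations hold without those libraries.

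Hspa1a and Hsph1 had an r of 0.22 (exact permutation p = 0.596, adjusted 0.639) and a rho of 0.38 (exact permutation p = 0.36, adjusted 0.45). With Hspa1b, Hsp90aa1, Hspb1 and Dnajb1, Hsph1 had an r of 0.40, 0.47, 0.59 and 0.68. The rho of these pairs was 0.48, 0.69, 0.81 and 0.79, and none passed after adjustment. Hsp90aa1 and Hsp90ab1 had an r of 0.35 (exact permutation p = 0.412, adjusted 0.475) and a rho of 0.40 (exact permutation p = 0.327, adjusted 0.433). The neighbours Hspd1 and Hspe1, which share the stretch shown above, had an r of 0.42 (exact permutation p = 0.301, adjusted 0.387) and a rho of 0.21 (exact permutation p = 0.619, adjusted 0.679). Hspa8 and Hsp90ab1 reached an r of 0.72 (exact permutation p = 0.0421, adjusted 0.172) and a rho of 0.62 (exact permutation p = 0.115, adjusted 0.284). Without the 2 farthest libraries, r was −0.08 for Hspa1a and Hsph1, 0.80 for the Hsp90 genes, 0.51 for Hspd1 and Hspe1, and 0.90 for Hspa8 and Hsp90ab1. For Hsph1 with Hspa1b and Dnajb1, that r was 0.18 and 0.81, with KI 513 and KI 528 left out. With Hsp90aa1 and Hspb1, Hsph1 had an r of 0.87 and 0.84, with WT 503 and WT 527 left out. The libraries left out differed between pairs, so these values do not all rest on the same libraries.

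**Figure D4:**
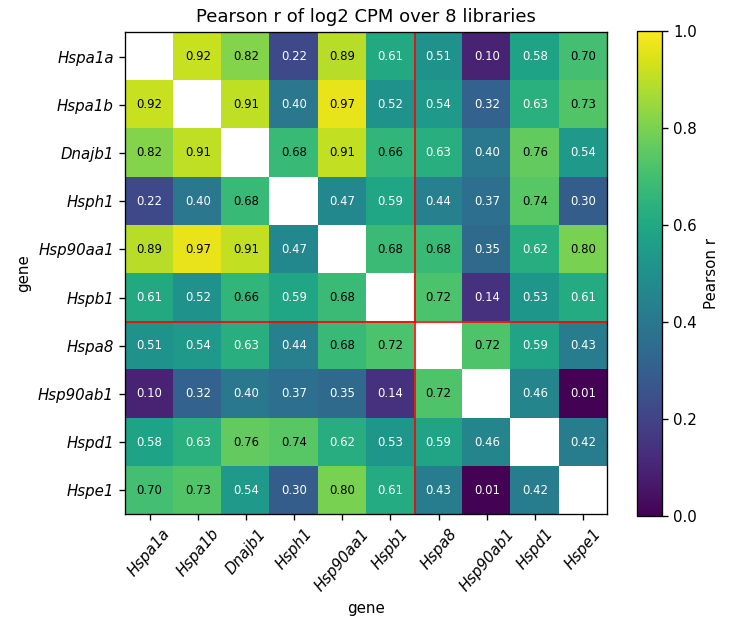
Pearson r of log2 CPM over the 8 libraries for each pair of the 10 genes, with red lines between inducible and constitutive genes. The pairs among Hspa1a, Hspa1b, Dnajb1 and Hsp90aa1 range from 0.82 to 0.97, and those of Hsp90ab1 with the other genes from 0.01 to 0.72.

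Immediate early genes, which dissociation is known to induce, shared their lowest libraries with the inducible chaperones, but also with other lists. Their highest library was KI 513 as well, with WT 506 almost level. The mean centred log2 CPM of 17 such genes was 0.62 in KI 513, where that of the 6 inducible members was 1.12. It was lowest in WT 504 at −1.21 and KI 526 at −0.91, where the inducible members, also at their lowest, were at −0.41 and −0.67. WT 504 and KI 526 were also the lowest libraries for the constitutive members (−0.21 and −0.15) and for 15 other known HSF1 targets (−0.22 and −0.23). In KI 528 the immediate early genes stood at 0.41 and the inducible members at 0.40. The other libraries differed more: the values were 0.03 and 0.34 in WT 503, 0.61 and −0.21 in WT 506, 0.08 and −0.30 in WT 527, and 0.38 and −0.27 in KI 549. Among the immediate early genes, the Kruppel-like factor Klf6 had a mean of 1129 ± 250.5 CPM for WT and 1452 ± 405 for KI, Atf3 119.7 ± 74.8 and 209 ± 136, and Junb 198 ± 96.4 and 149 ± 63.7. None of the 17 passed at an unadjusted p under 0.05, 12 of them had a log2 fold change above 0 and the median was 0.23. The part of dissociation in the heat shock levels was not tested.

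Of the heat shock transcription factors and regulators, 3 of 4 genes were tested. Hsf2, a paralog of HSF1, averaged 13.5 ± 0.475 CPM for WT and 18.5 ± 2.43 for KI without overlap (log2 fold change 0.46, SE 0.14, unadjusted p = 0.00826, edgeR adjusted p = 0.533). Hsf1 itself, the main activator, averaged 60.7 ± 8.86 and 53.2 ± 9.73 CPM (log2 fold change −0.19), and Hsbp1, a small protein that binds HSF1, 253 ± 16.5 and 279 ± 22.6 (0.14). None passed after adjustment.

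Other known targets of HSF1 gave 10 of 15 log2 fold changes above 0, with a median of 0.05 and 0 of 15 at an unadjusted p under 0.05. Dnaja1, an Hsp40 of the other main class, averaged 111 ± 23.3 CPM for WT and 145 ± 39.8 for KI (log2 fold change 0.39), and the ubiquitin gene Ubb 836 ± 29.7 and 941 ± 119 (0.17). Dnajb2 averaged 7.77 ± 1.16 and 5.52 ± 2.26 CPM (−0.50). The largest value, 1.34 for Hspa1l, the gene beside Hspa1a, came from 0.134 ± 0.171 and 0.345 ± 0.0634 CPM, and it was chosen after its values were seen.

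Partners of Hsp70 were split evenly, 10 of 20 tested genes above 0 with a median of −0.04. Hspbp1, a nucleotide exchange factor of Hsp70, averaged 33.5 ± 3.45 CPM for WT and 24.6 ± 1.94 for KI without overlap (log2 fold change −0.45, SE 0.12, unadjusted p = 0.00345, edgeR adjusted p = 0.507). Dnajb6, an Hsp40 that holds aggregation-prone proteins, averaged 57.6 ± 1.84 and 66.4 ± 5.35 CPM without overlap (0.20, SE 0.09, unadjusted p = 0.0385, edgeR adjusted p = 0.616). Bag1, another exchange factor, averaged 14.2 ± 3.1 and 10.8 ± 1.57 CPM (−0.39). These 2 genes without overlap, of 20, stand beside the 4.94% of all genes given above. Partners of Hsp90 had 6 of 10 above 0 and a median of 0.09, with Ppid at 0.18, Ttc4 at 0.17 and the p23 gene Ptges3 at 0.12.

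Of 8 other small heat shock genes 3 were tested, Hspb3 at a log2 fold change of 0.26, Hspb6 at −0.51 and Cryab at −0.08. The cytosolic chaperonin CCT and its helper prefoldin had 10 of 14 above 0 and a median of 0.09. Cct8 averaged 188 ± 15.6 CPM for WT and 168 ± 6.65 for KI without overlap (−0.17, unadjusted p = 0.0421, edgeR adjusted p = 0.626). Pfdn6 averaged 32.4 ± 2.15 and 37.6 ± 1.81 CPM without overlap (0.22), and Cct2 had a log2 fold change of 0.24. Mitochondrial chaperones and proteases other than Hspd1 and Hspe1 had 10 of 14 above 0 and a median of 0.07, with Clpb at 0.23, Htra2 at −0.25 and Yme1l1 at 0.09. In the endoplasmic reticulum, 6 of 10 were above 0 with a median of 0.01; Dnajb9 averaged 315 ± 16.2 and 359 ± 32.3 CPM (0.19, unadjusted p = 0.0296, edgeR adjusted p = 0.6), with Canx at 0.16 and Hyou1 at −0.37. Across these 8 lists the edgeR quasi-likelihood test called 0 of 89 genes. At an unadjusted p under 0.05 there were 3 genes higher and 2 lower in KI, 5.62% of the 89 against 7.79% of all genes.

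**Figure D5:**
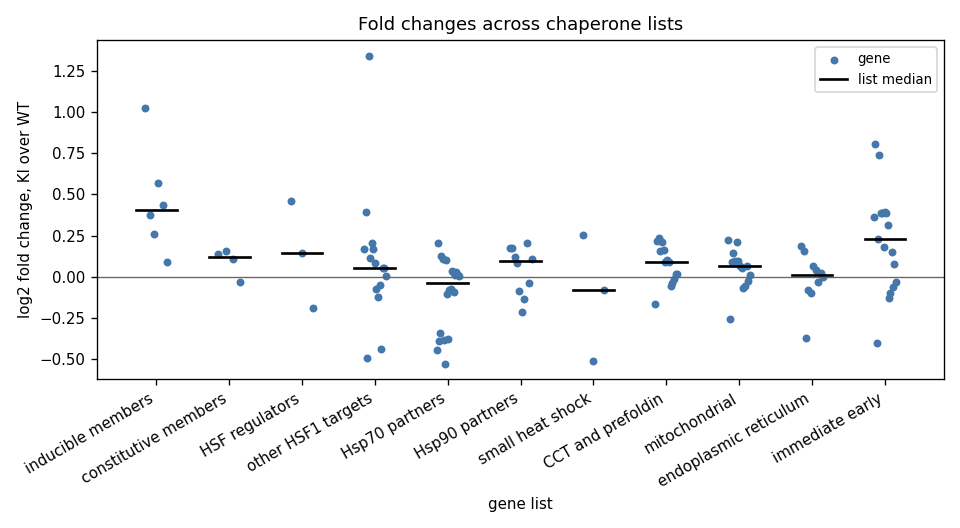
Log2 fold change (KI over WT) of every tested gene in the heat shock members, the other chaperone lists and the immediate early genes, 1 point per gene with a bar at the list median. The medians lie between −0.08 and 0.41, and the inducible members and immediate early genes have the highest.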

How the data were processed

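The authors deposited read counts per gene, which featureCounts took from exons of each gene identifier (paired input, primary alignments, chimeric pairs left out, no strand setting), per the file headers. No option to count pairs as fragments is given there, so both reads of a pair can count, and even numbers made up 68.9% to 70.8% of small counts (1 to 9). Build mm10 and these tools are named, per the submitters' processing notes: featureCounts 2.0.3, STAR 2.7.5c, limma, edgeR, R 3.6.0 and SAMtools 1.9. The authors also deposited FPKM values, used only in an alternative. Exon lengths are from the count table, and 8 of its columns that match no label were not used.

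Counts were analysed here with edgeR 4.0.16 in R 4.3.3 (TMM scaling, filterByExpr with minimum count 10 and minimum total 15, robust quasi-likelihood fit with group as the only term). Adjusted p-values under 0.05 counted as calls, and the procedure was tested on simulated data. Levels are CPM scaled by TMM. Log2 CPM for correlations and spreads used a prior count of 2. DESeq2 1.42.0 and limma 3.58.1 served as alternatives. Near-identical genes were found with BLAST 2.17.0 in GENCODE transcripts. Of the 54532 genes 54409 had a symbol. A count of 0 allows up to 3 reads, or 0.0555 to 0.0664 CPM. Intervals have a 95% level. No molecular identifiers were counted, so reads can be copies of 1 molecule. The edgeR p-values set the difference between groups against the spread between mice. The members and lists were chosen with earlier results of these data known. Named genes were all members, the up to 3 genes with the smallest p in each other list, and the 8 genes most like the inducible members; Hspa1l and the near-identical copies are named besides.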

Additional observations from a re-analysis of the deposited data

Results flagged for a closer look

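In the KI group, Hspe1 stood at 51.3 CPM in KI 513, apart from the other 3 KI libraries at 37.4 to 38.3 CPM. The gap to the nearest of them was 0.934 of the group's whole range, above Dixon's 95% critical value for 4 samples. Of the 20 groups of 4 checked (10 genes in WT and KI), this was the 1 beyond that value, and chance gives about 1 in 20. KI 513 was also the library with the most Hspa1a, Hspa1b, Dnajb1, Hsp90aa1 and Hspb1.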

How the results depend on the processing

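Each of the 10 fold changes was recomputed under 15 alternatives and some of them under 2 more, 155 values in all. In 150 the direction and the side of the threshold were as reported. The other 5 changed sign when 1 library was left out. The size also moved: limma-voom gave 0.12 for Hspa1a, 0.65 for Hspa1b and 0.04 for Hspb1, and limma on log2(FPKM + 1) gave 0.18, 0.49 and 0.15, against 0.57, 1.02 and 0.44 by edgeR. The median of the 6 inducible genes was then 0.16 and 0.19, against 0.41. With 1 library left out, the leave-one-out log2 fold change ranged from −0.18 to 0.85 for Hspa1a, from −0.35 to 0.78 for Hspb1, from −0.073 to 0.26 for Hsph1 and from −0.085 to 0.079 for Hspd1. For Hspa1a and Hspb1 the library was KI 513, for Hsph1 WT 527, and for Hspd1 WT 503 or KI 549. The count of called genes was 0 in the edgeR fits and 0 by limma-voom, while DESeq2 called 238 genes (71 higher, 167 lower in KI) and limma on log2(FPKM + 1) called 1. The cause was not tested. None of these calls was a member, and the count of called members was 0 under each alternative. Of the correlations, the same 5 pairs passed with log2 CPM centred within each group, and with DESeq2 size factors. Without the 2 farthest libraries, 0 pairs passed in place of 5, with fewer samples and too few pairings for a single pair to pass on its own. Summing near-identical copies was chosen after seeing the data. No paired analysis was possible because the mouse numbers of the groups do not match. The intervals of Hspa1a, Hspa1b and Hspb1 do not exclude a doubling, at log2 upper bounds of 1.75, 2.24 and 1.99.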

Other observations

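The genes outside the lists whose levels were most like the mean of the 6 inducible members, among 8908 named genes whose mean reached 5 CPM (predicted gene models left out), were Tnpo3 (Pearson r = 0.96 over the 8 libraries), Lin9 (0.95), Picalm (0.93), Hnrnpa3 (0.92), Setd2 (0.92), Med23 (0.90), Anapc4 (0.90) and Tagap (0.90). They were picked for this likeness, so the values are a description, and all libraries share their depth and scaling. Tnpo3 encodes a nuclear import receptor, Picalm a clathrin adaptor, Setd2 a histone methyltransferase and Med23 a Mediator subunit. In none of the 8 did the groups separate: Tnpo3 averaged 82.7 CPM in WT and 88.4 in KI, Lin9 38.6 and 44.9, and Picalm 510.3 and 537.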
